A study of Homo sapiens with 8 samples.

Results

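The miRNAs described here are encoded inside the 4 human HOX gene clusters, and they were read by small RNA sequencing in HCT116, a human colorectal cancer cell line. They are miR-10a, miR-10b, miR-196a, miR-196b and miR-615, chosen by name, and 9 of the 2026 rows of the deposited count table belong to them. In the table's spelling, where hsa stands for human, the rows are hsa-miR-10a-5p, hsa-miR-10a-3p, hsa-miR-10b-5p, hsa-miR-10b-3p, hsa-miR-196a-5p, hsa-miR-196b-5p, hsa-miR-196b-3p, hsa-miR-615-3p and hsa-miR-615-5p. Each row is 1 arm of a hairpin precursor, the 5p or the 3p strand. HCT116 spheroids had been grown without serum in low-attachment flasks and sorted by flow cytometry, after removal of dead cells, into cells that bound an antibody to CD44v6 and cells that did not. CD44v6, a variant of the hyaluronan-binding protein CD44 made by alternative splicing, serves to enrich stem-like cells from colorectal cancer. The groups were CD44v6-positive HCT116 cells (2 samples) and CD44v6-negative HCT116 cells (2 samples). Both came from a single cell line, and the labels do not say whether samples 1 and 2 of a group were separate cultures. The spread behind every p-value is thus the spread between these samples alone and may be technical.

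HOX genes encode transcription factors that give cells their position along the body axis, and an adult cell keeps a characteristic set of them active. The miRNAs embedded among them are generally transcribed with their neighbours, and several repress HOX messenger RNAs. miR-196 directs cleavage of the HOXB8 transcript, and miR-10b represses HOXD10 in breast cancer cells. A miRNA recognises its targets mainly through its seed, bases 2 to 8 from the 5′ end.

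The hairpins lie on 4 chromosomes of GRCh38, as placed by GENCODE 29. MIR10A (chr17:48579838-48579947, minus strand) lies in the HOXB cluster, within an intron of HOXB3 and overlapping an exon of a HOXB4 transcript. MIR10B (chr2:176150303-176150412, plus strand) lies in the HOXD cluster, in an intron of HOXD3 and 810 bases from HOXD4. MIR196B (chr7:27169480-27169563, minus strand) lies in the HOXA cluster and overlaps an exon of a HOXA9 transcript. MIR615 (chr12:54033950-54034045, plus strand) lies in the HOXC cluster, in introns of HOXC4 and HOXC5. miR-196a-5p has 2 sources of identical sequence, MIR196A1 in an intron of HOXB7 (chr17:48632490-48632559, minus strand) and MIR196A2 in an intron of HOXC6 (chr12:53991738-53991847, plus strand), so its reads cannot be split between HOXB and HOXC.

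The abundant arms are shown first because the comparison turns on them, with the seed in capitals (RefSeq, GRCh38.p14, 5′ to 3′). miR-10b-5p belongs to the same family as miR-10a-5p.
miR-10a-5p: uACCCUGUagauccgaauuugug
miR-196a-5p: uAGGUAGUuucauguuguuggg
miR-196b-5p: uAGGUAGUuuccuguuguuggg
miR-615-3p: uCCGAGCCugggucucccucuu
miR-196a-5p and miR-196b-5p share their seed and differ at 1 base, A12C, counted from the 5′ end with miR-196a-5p first. The mismatch setting of the alignment is not given in the sources used here, so reads of such close pairs cannot be assigned with certainty. Among the table entries with a sequence, 2 carry the seed of miR-196, which are these. The seed of miR-615-3p is carried by 1 entry.

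The rarer arms are shown because their few reads limit what can be said of each hairpin.
miR-10a-3p: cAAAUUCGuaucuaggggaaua
miR-10b-3p: aCAGAUUCgauucuaggggaau
miR-196b-3p: uCGACAGCacgacacugccuuc
miR-615-5p: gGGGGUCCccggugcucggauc
In 2 of the precursors the reads fell on opposite sides, on the 5p arm of MIR10A and on the 3p arm of MIR615. Both arms are in capitals in these hairpins.
MIR10A: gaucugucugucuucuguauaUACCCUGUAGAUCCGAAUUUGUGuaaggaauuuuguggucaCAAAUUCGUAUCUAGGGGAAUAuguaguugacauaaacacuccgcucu
MIR615: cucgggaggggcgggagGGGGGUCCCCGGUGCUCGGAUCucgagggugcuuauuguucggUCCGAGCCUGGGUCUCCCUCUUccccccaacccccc

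Depth differed between the groups. The CD44v6-positive samples held 919802 and 154481 reads, and the CD44v6-negative samples 7880631 and 4592278. A count of 0 allows up to 3 reads, which was 3.26 and 19.4 CPM (reads per 1000000 reads) in the CD44v6-positive samples and 0.381 and 0.653 CPM in the CD44v6-negative samples. PCR copies of a molecule are counted as separate reads, so such limits and the intervals on shares and pooled ratios cover counting error only. These intervals leave out the spread between samples. Levels are given as CPM scaled by TMM, edgeR's correction for library composition, unless called a share of reads, pooled or scaled by total reads. The TMM factors were 1.01 and 1.24 in CD44v6-positive and 0.664 and 1.2 in CD44v6-negative samples. A lower factor raises the scaled CPM. All 6 epithelial markers checked (miR-192-5p, miR-194-5p, miR-215-5p, miR-200c-3p, miR-141-3p and miR-203a-3p) had reads in every sample, and their fold changes went both ways. miR-141-3p was at 1939 and 1172 CPM in CD44v6-positive samples against 11201 and 5342 CPM in CD44v6-negative samples, and miR-203a-3p was likewise lower without overlap. miR-200c-3p (-0.61 on the log2 scale) overlapped between the groups, as did miR-192-5p, miR-194-5p and miR-215-5p, whose log2 fold changes were 0.80, 0.74 and 1.73. None of the 6 passed the edgeR test. Markers of other tissues were uneven. The 7 blood markers summed to 3777 and 3739 CPM in CD44v6-positive and to 3132 and 1410 CPM in CD44v6-negative samples. Most of this was miR-486-5p, at 3685 and 3109 CPM in CD44v6-positive and 2972 and 1288 CPM in CD44v6-negative samples. The red-cell miRNA miR-451a was at 15.1 and 281 CPM in CD44v6-positive against 24.9 and 7.61 CPM in CD44v6-negative samples, and miR-144-3p at 2.16 and 36.5 CPM in CD44v6-positive against 2.87 and 2.17 CPM in CD44v6-negative samples. The 7 stroma and muscle markers summed to 856 and 5067 CPM in CD44v6-positive samples against 1273 and 864 CPM in CD44v6-negative samples. The sum of 5067 CPM was almost all miR-143-3p (4968 CPM), while miR-145-5p was lowest in that sample, at 100.3 and 57.3 CPM in CD44v6-positive against 179 and 197 CPM in CD44v6-negative samples. miR-206 had 0 reads in all 4 samples, and miR-1-3p and miR-133a-3p had 0 reads in sample 2 of both groups. The 3 neural markers summed to 864 and 437 CPM in CD44v6-positive samples against 2000 and 947 CPM in CD44v6-negative samples, nearly all of it miR-9-5p. The liver marker miR-122-5p was at 48.5 and 609 CPM in CD44v6-positive and at 4.59 and 3.99 CPM in CD44v6-negative samples. CD44v6-positive sample 2 thus had the highest miR-143-3p, miR-122-5p, miR-451a and miR-144-3p of the 4 samples. That sample also had the highest miR-192-5p, miR-194-5p and miR-215-5p, and the lowest miR-200c-3p, miR-141-3p, miR-203a-3p and miR-145-5p. miR-486-5p was highest in CD44v6-positive sample 1. The miR-144-3p values rest on 2 and 7 reads in CD44v6-positive and 15 and 12 reads in CD44v6-negative samples. The part that any of these markers plays in the HOX-cluster values was not tested.

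miR-10a-5p and miR-10b-5p were by far the most abundant of the 9 entries, and both lay lower in CD44v6-positive cells. hsa-miR-10a-5p, from HOXB, took 1.51% and 1.48% of all reads in CD44v6-positive samples 1 and 2, against 3.98% and 2.32% in CD44v6-negative samples 1 and 2. By abundance it ranked 13 and 13 among all entries in the CD44v6-positive samples, and 6 and 9 in the CD44v6-negative samples. The CD44v6-positive samples sat close together, while the CD44v6-negative samples were far apart and both above them. In a bulk sample, fewer cells with a miRNA and less of it per cell cannot be told apart.

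On the TMM scale miR-10a-5p was at 15001 and 11914 CPM in CD44v6-positive and at 59936 and 19292 CPM in CD44v6-negative samples. Its mean was 13458 ± 2183 CPM in the CD44v6-positive group, against 39614 ± 28740 CPM in the CD44v6-negative group (SD, n = 2 each). The CD44v6-negative samples were further apart here than in shares of reads, since CD44v6-negative sample 1 had the lowest TMM factor (0.664). The log2 fold change, positive over negative, was -1.56 ± 0.62 (SE), and it did not pass edgeR's quasi-likelihood test across all miRNAs (adjusted p = 0.150). CD44v6-negative sample 1 decided its size. Without that sample the log2 fold change was -0.45, and without CD44v6-negative sample 2 it was -1.98 and passed (edgeR adjusted p = 0.0143).

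hsa-miR-10b-5p, from HOXD, was also lowest in CD44v6-positive sample 2 and highest in CD44v6-negative sample 1. It was at 7461 and 5692 CPM in CD44v6-positive samples, against 37073 and 12202 CPM in CD44v6-negative samples, so the groups did not overlap. Its mean was 6576 ± 1251 CPM in the CD44v6-positive group, against 24637 ± 17587 CPM in the CD44v6-negative group (SD, n = 2 each). The log2 fold change was -1.91 ± 0.62 with an edgeR adjusted p of 0.125. As with miR-10a-5p, it was smaller without CD44v6-negative sample 1, at -0.82, and larger without CD44v6-negative sample 2, at -2.32 (edgeR adjusted p = 0.00427).

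**Figure D1:**
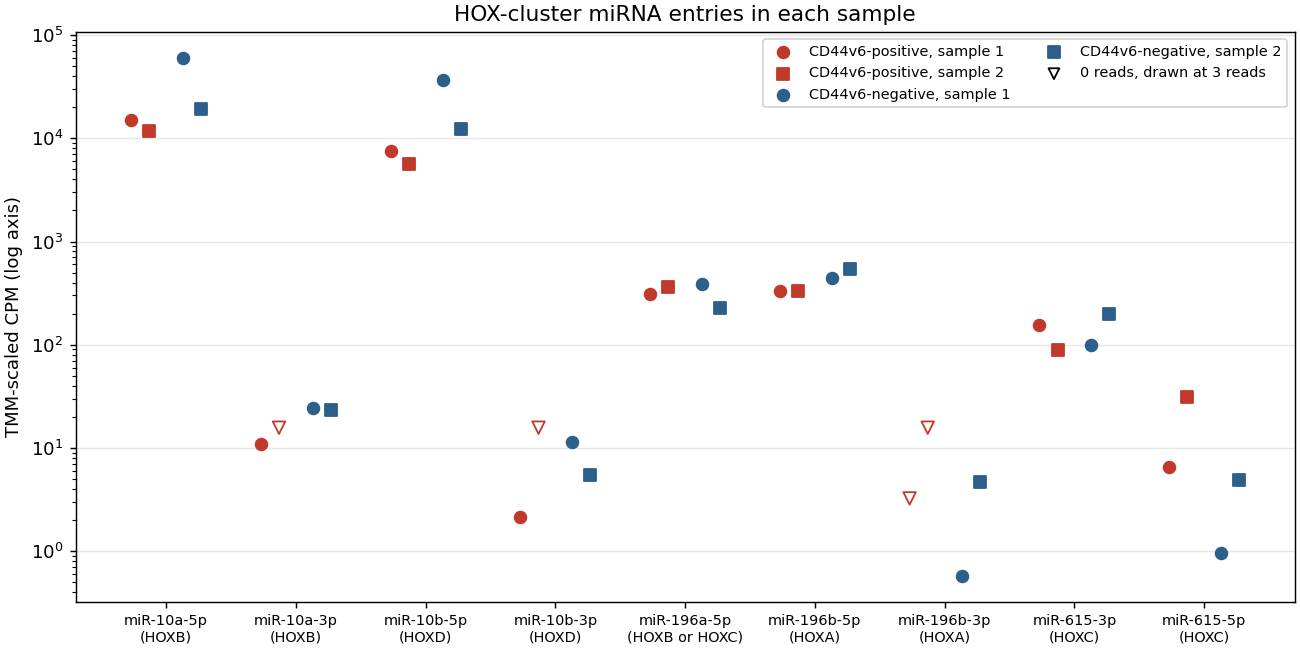
Level of each of the 9 entries as TMM-scaled CPM on a log axis, with CD44v6-positive samples in red and CD44v6-negative samples in blue, circles for sample 1 and squares for sample 2. Open triangles mark entries with 0 reads, drawn at the level of 3 reads. Both miR-10 5p arms lie lower in both CD44v6-positive samples, with miR-10a-5p at 15001 and 11914 CPM in CD44v6-positive against 59936 and 19292 CPM in CD44v6-negative samples.

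None of the 8 tested entries passed the edgeR test, and nor did any of the 570 miRNAs tested (0%). Without adjustment for multiple tests, 30.5% of all tested miRNAs lay under 0.05 (17.5% lower and 13% higher), and so did 2 of the 8 entries, miR-10a-5p and miR-10b-5p, both lower. DESeq2 called none of the entries while it called 8.81% of the miRNAs it gave an adjusted p, and limma-voom called none while it called 0.702%. The groups did not overlap in 5 entries that were lower and 1 that was higher in CD44v6-positive samples, beside 34.6% of all tested miRNAs lower and 24.9% higher. On CPM scaled by total reads the same count was 4 entries lower and 2 higher, beside 27.5% and 27.9% of all tested miRNAs. Of the 8 entries 6 had a negative and 2 a positive log2 fold change, with a median of -1.05, beside a median of -0.31 for the 570 tested miRNAs. The filter on low counts asks for a minimum level in at least 2 samples. miR-10b-3p met it in the CD44v6-negative samples alone, and miR-10a-3p in both of these and 1 CD44v6-positive sample. miR-615-5p met it in both CD44v6-positive samples and 1 CD44v6-negative sample. Each of these arms thus entered the test through the group where it was higher. Their places in the counts and in the median of -1.05 are therefore no support for a difference. Relative to the median of -0.31 for all tested miRNAs, the log2 fold change was -1.25 for miR-10a-5p and -1.60 for miR-10b-5p. Scaling by upper quartile moved the median of all miRNAs by 0.34 and scaling by total counts by 0.31, and under both the 4 miR-10 arms stayed negative. With total counts the log2 fold changes were nearer to 0 than with TMM, at -1.07 for miR-10a-5p and -1.43 for miR-10b-5p. Relative to the median of that fit they were -1.08 and -1.43.

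miR-10a-5p made up a larger part of the miR-10 5p reads in CD44v6-positive cells. This share sets 2 entries of the same library against each other and so does not depend on library scaling. It does depend on how reads were assigned between these 2 family members, and the mismatch setting of the alignment is not given. The share was 66.8% (95% Clopper-Pearson interval 66.1 to 67.4) and 67.7% (66.1 to 69.3) in CD44v6-positive samples 1 and 2. In CD44v6-negative samples 1 and 2 it was 61.8% (61.7 to 61.9) and 61.3% (61.0 to 61.5). Both positive samples stood above both negative ones, and the means of 67.2% ± 0.629 in CD44v6-positive and 61.5% ± 0.373 in CD44v6-negative samples (SD, n = 2 each) differed by 5.71 percentage points. The exact two-sided permutation p was 0.333, the smallest that 2 samples against 2 can give. Whichever sample was left out, the difference stayed between 5.26 and 6.15 points, while the fold changes of both miRNAs depended on CD44v6-negative sample 1.

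The miR-10 passenger strands, the less used 3p arms, were rare. miR-10a-3p had 10 and 0 reads in CD44v6-positive samples, against 127 and 127 reads in CD44v6-negative samples. At the mean level of the negative samples the positive ones would have held 20.1 and 3.38 reads. Pooled over each group and scaled by total reads, miR-10a-3p stood at 9.31 CPM of the CD44v6-positive reads, against 20.4 CPM of the CD44v6-negative reads. The ratio was 0.457, with a counting interval of 0.217 to 0.854 that leaves out the spread between samples. Pooled ratios use total reads, whereas the edgeR fit uses TMM. edgeR gave a log2 fold change of -1.66 ± 0.92 (adjusted p = 0.264), which was -0.91 without CD44v6-positive sample 2, the sample with 0 reads. miR-10b-3p had 2 and 0 reads in CD44v6-positive samples, against 59 and 30 reads in CD44v6-negative samples, a pooled ratio of 0.261 (counting interval 0.0311 to 0.971). In CD44v6-positive sample 2 a count of 0 allows up to 15.6 TMM-scaled CPM. That is above the 11.3 and 5.43 CPM of miR-10b-3p in the CD44v6-negative samples. The lack of overlap for this arm rests on CD44v6-positive sample 1, whose 2 reads are too few to establish it. The 3p arm thus took 0.0718% and 0% of the miR-10a reads in CD44v6-positive samples, where a count of 0 in 2288 reads allows up to 0.161% (exact upper bound), and 0.0405% and 0.119% in CD44v6-negative samples. The groups overlapped in this share (exact two-sided permutation p = 0.667).

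miR-196a-5p and miR-196b-5p, which have the same seed, were read at much lower levels than miR-10 and did not move together in every sample. hsa-miR-196a-5p, from HOXB or HOXC, was at 307 and 359 CPM in CD44v6-positive samples, against 389 and 225 CPM in CD44v6-negative samples, and the groups overlapped. Its mean was 333 ± 36.8 CPM in the CD44v6-positive group, against 307 ± 115.5 CPM in the CD44v6-negative group (SD, n = 2 each). In shares of all reads the groups did not overlap, at 0.0310% and 0.0447% in CD44v6-positive against 0.0258% and 0.0271% in CD44v6-negative samples. The overlap thus depends on the scaling. The fold change was 0.12 ± 0.53 on the log2 scale (adjusted p = 0.90 in edgeR). The sign turned without CD44v6-negative sample 2 (-0.05), with no count filter (-0.34) and with DESeq2 (-0.10), so no direction can be given for it. With no count filter the median of all miRNAs was -1.55, and miR-196a-5p stood at 1.22 relative to that median.

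hsa-miR-196b-5p, from HOXA, was at 332 and 333 CPM in CD44v6-positive samples, against 439 and 536 CPM in CD44v6-negative samples. The groups did not overlap on this scale, and the mean was 333 ± 0.831 CPM in the CD44v6-positive group, against 488 ± 68.9 CPM in the CD44v6-negative group (SD, n = 2 each). Its log2 fold change of -0.55 ± 0.48 was close to its standard error (edgeR adjusted p = 0.485), was -0.25 relative to the median of all miRNAs, and ran from -0.68 to -0.23 with 1 sample left out. As a share of all reads the groups did overlap, at 0.0335% and 0.0414% in CD44v6-positive and 0.0291% and 0.0645% in CD44v6-negative samples.

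Within the miR-196 5p pair, CD44v6-negative sample 2 stood apart. The share of miR-196a-5p was 48.1% (interval 44.0 to 52.2) and 51.9% (43.0 to 60.6) in CD44v6-positive samples 1 and 2, against 47.0% (45.5 to 48.5) and 29.6% (28.2 to 31.0) in CD44v6-negative samples 1 and 2. CD44v6-negative sample 1 lay within the interval of each positive sample. The difference of the means was 11.7 percentage points (exact two-sided permutation p = 0.333, the smallest possible here), and 3.01 points without CD44v6-negative sample 2.

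**Figure D2:**
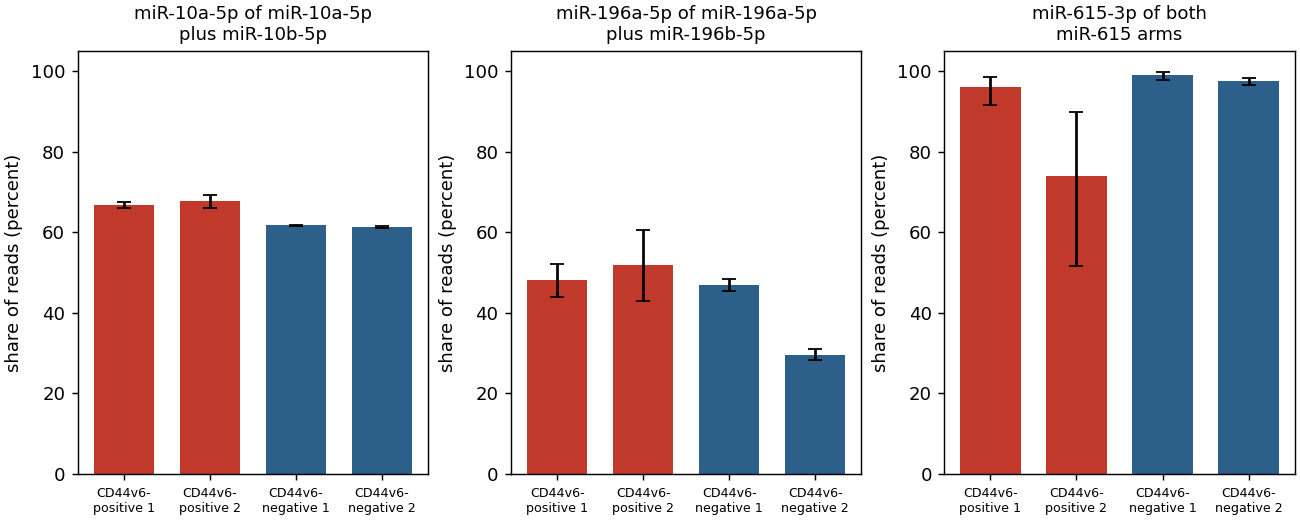
Share of reads, in percent, of miR-10a-5p among both miR-10 5p arms, of miR-196a-5p among both miR-196 5p arms, and of miR-615-3p among both miR-615 arms. Bars are single samples, CD44v6-positive in red and CD44v6-negative in blue, with 95% Clopper-Pearson intervals. The miR-10 shares are 66.8% and 67.7% in positive and 61.8% and 61.3% in negative samples, while the low miR-196 bar is CD44v6-negative sample 2 and the low miR-615 bar is CD44v6-positive sample 2.

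miR-196b-3p had 0 reads in both CD44v6-positive samples, against 3 and 26 reads in CD44v6-negative samples, and it did not pass the filter on low counts. The pooled level of 2.33 CPM in CD44v6-negative reads is below the 2.79 CPM that a count of 0 allows in the pooled CD44v6-positive reads, so a difference was not detectable at this depth. The table also holds miR-196a-3p, which comes from MIR196A2 and so marks the HOXC copy. It had 5 and 0 reads in CD44v6-positive samples against 62 and 33 reads in CD44v6-negative samples. On the log2 scale it stood at -1.17 ± 1.02 (adjusted p = 0.489 in edgeR). Its hairpin is shown because it ties these reads to HOXC, with the 5p and 3p arms in capitals.
MIR196A2: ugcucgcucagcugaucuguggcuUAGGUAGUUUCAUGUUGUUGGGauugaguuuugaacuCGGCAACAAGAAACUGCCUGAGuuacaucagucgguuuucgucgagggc
miR-3185, from the far end of HOXB near HOXB13, had 0 reads in all 4 samples.

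hsa-miR-615-3p, the main arm of the HOXC hairpin, did not separate the groups. It was at 155 and 88.5 CPM in CD44v6-positive samples, from 144 and 17 reads, against 100.2 and 199.5 CPM in CD44v6-negative samples, from 524 and 1101 reads. Its mean was 122 ± 47.2 CPM in the CD44v6-positive group, against 149.8 ± 70.2 CPM in the CD44v6-negative group (SD, n = 2 each). The log2 fold change was -0.28 ± 0.62 (edgeR adjusted p = 0.794), next to the median of all miRNAs, and it turned positive without CD44v6-positive sample 2 (0.31), without CD44v6-negative sample 2 (0.46) and with upper quartile scaling (0.06).

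hsa-miR-615-5p, the opposite arm, lay above either CD44v6-negative sample in each of the CD44v6-positive samples. It had 6 and 6 reads there, against 5 and 27 reads in the deeper CD44v6-negative samples, whose mean level would have given 2.996 and 0.503 reads in the positive ones. This corresponds to 6.47 and 31.2 CPM in CD44v6-positive and 0.956 and 4.89 CPM in CD44v6-negative samples. The pooled ratio on total reads was 4.35 with a counting interval of 2.04 to 8.68. That interval leaves out the spread between samples and is no test of a difference between the groups. edgeR gave a log2 fold change of 2.41 ± 1.20 (adjusted p = 0.222). It was 1.41 without CD44v6-positive sample 2, 1.78 without CD44v6-negative sample 1 and 4.18 without CD44v6-negative sample 2. CD44v6-positive sample 1, at 6.47 CPM, lay only slightly above CD44v6-negative sample 2, at 4.89 CPM.

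The 5p arm also took a larger part of the miR-615 reads in both CD44v6-positive samples, at 4.0% and 26.1%, against 0.945% and 2.39% in the CD44v6-negative samples. The 3p share was 96.0% (interval 91.5 to 98.5) and 73.9% (51.6 to 89.8) in CD44v6-positive samples 1 and 2, against 99.1% (97.8 to 99.7) and 97.6% (96.5 to 98.4) in CD44v6-negative samples 1 and 2. The second value rests on 17 reads of miR-615-3p and 6 of miR-615-5p. The means differed by -13.4 percentage points (exact two-sided permutation p = 0.333, the smallest possible here), and by -2.33 points without CD44v6-positive sample 2.

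**Figure D3:**
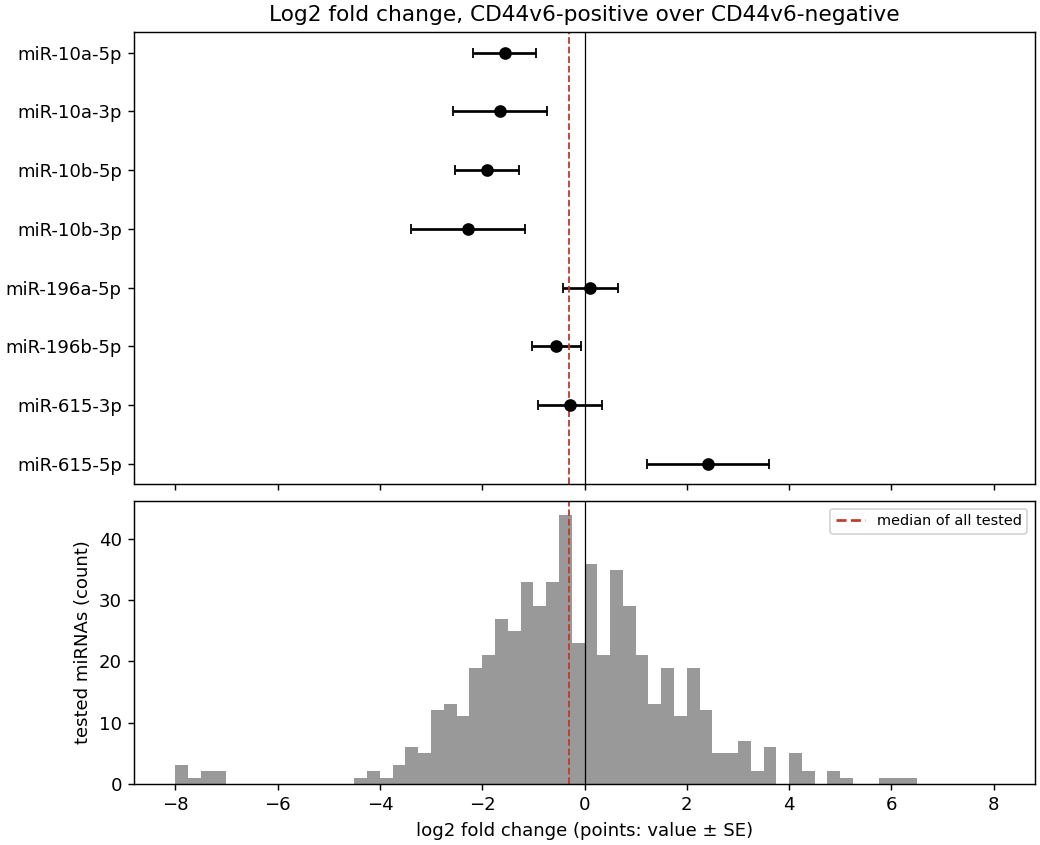
Upper panel, log2 fold change (CD44v6-positive over CD44v6-negative) of the 8 tested entries with bars of ± 1 SE from the edgeR fit. Lower panel, the same quantity for all 570 tested miRNAs as counts per bin, with the dashed line at their median of -0.31. The miR-10 arms lie to the left of the median, from -2.29 to -1.56, and the miR-196 5p arms and miR-615-3p lie near it.

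By cluster, the reads of HOXB (miR-10a arms) and HOXD (miR-10b arms) outnumbered those of the other clusters in every sample. HOXB summed to 15012 and 11914 CPM in CD44v6-positive and to 59961 and 19315 CPM in CD44v6-negative samples, and HOXD to 7463 and 5692 CPM in CD44v6-positive against 37085 and 12207 CPM in CD44v6-negative samples. HOXA (miR-196b arms) summed to 332 and 333 CPM in CD44v6-positive and to 439 and 541 CPM in CD44v6-negative samples. HOXC (miR-615 arms) summed to 162 and 119.8 CPM in CD44v6-positive against 101 and 204 CPM in CD44v6-negative samples, and its groups overlapped. miR-196a-5p, from HOXB or HOXC, is in none of these cluster sums, and neither is miR-196a-3p. At 307 and 359 CPM in CD44v6-positive and 389 and 225 CPM in CD44v6-negative samples, miR-196a-5p exceeded the HOXC sum in every sample. The full output of HOXC is therefore not known from these sums. All 9 entries together took 2.35% and 2.29% of the reads in CD44v6-positive samples and 6.5% and 3.91% in CD44v6-negative samples, nearly all of it from miR-10. These sums were not tested.

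The order of the 5 abundant arms had miR-10a-5p first, miR-10b-5p second and miR-615-3p last in all 4 samples. Between them miR-196a-5p and miR-196b-5p traded places. Their means in the CD44v6-positive group, both 333 CPM, did not differ beyond their spread, whereas miR-196b-5p was higher than miR-196a-5p in both CD44v6-negative samples. Read counts of different miRNAs also depend on how well each ligates in library preparation, so this order is one of reads.

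Likeness of pattern was measured as the Euclidean distance between centred log2 CPM over the 4 samples, which depends on few points and is given as a description. miR-10a-5p and miR-10b-5p were 0.363 apart, against a median distance of 2.43 from miR-10a-5p to the 562 tested miRNAs outside the set. Only 1 of those was closer to miR-10a-5p, namely miR-21-5p at 0.348, followed by miR-146b-5p at 0.436. For miR-10b-5p the nearest were miR-3074-5p (0.351) and miR-21-5p (0.452). miR-196a-5p was nearest to let-7e-5p (0.111) and miR-3189-3p (0.114), and miR-196b-5p to miR-505-3p (0.0767) and miR-29b-1-5p (0.147). The nearest to miR-615-3p were miR-643 (0.273) and miR-339-3p (0.447). miR-196a-5p and miR-196b-5p were 1.05 apart, and 87 miRNAs outside the set lay closer to miR-196a-5p than that.

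Relatives by sequence lie outside the HOX clusters. They are shown to set their seeds beside those of miR-10 and miR-196.
miR-100-5p: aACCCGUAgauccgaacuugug
miR-99a-5p: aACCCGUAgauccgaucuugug
miR-99b-5p: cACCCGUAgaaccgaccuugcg
let-7a-5p: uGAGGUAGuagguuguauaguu
miR-10a-5p and miR-100-5p have the stretch GUAGAUCCGAA in common, from base 7 of miR-10a-5p and base 6 of miR-100-5p, while their seeds differ. The miR-196 seed AGGUAGU stands in let-7a-5p from base 3, shifted by 1 base. None of the 3 relatives of miR-10 passed the edgeR test. miR-99a-5p overlapped between the groups, at 25.9 and 78.1 CPM in CD44v6-positive and 73.6 and 23.0 CPM in CD44v6-negative samples. It stood at 0.02 ± 0.87 on the log2 scale (adjusted p = 0.99 in edgeR). miR-99b-5p was at 23183 and 19241 CPM in CD44v6-positive samples against 38299 and 28850 CPM in CD44v6-negative samples, or -0.66 ± 0.42 on the log2 scale (adjusted p = 0.322 in edgeR). For miR-100-5p the groups overlapped, at 89507 and 37951 CPM in CD44v6-positive and 272197 and 81445 CPM in CD44v6-negative samples, with -1.47 ± 0.72 on the log2 scale (adjusted p = 0.216 in edgeR). On CPM scaled by total reads miR-100-5p did not overlap, at 90251 and 47177 CPM in CD44v6-positive against 180671 and 97893 CPM in CD44v6-negative samples. None of the 9 let-7 and miR-98 guide strands passed, 2 were positive and 7 negative, and the median of their log2 fold changes was -0.15, beside -0.31 for the 570. let-7a-5p itself was at 74387 and 48793 CPM in CD44v6-positive and at 124236 and 43675 CPM in CD44v6-negative samples, which overlapped.

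**Figure D4:**
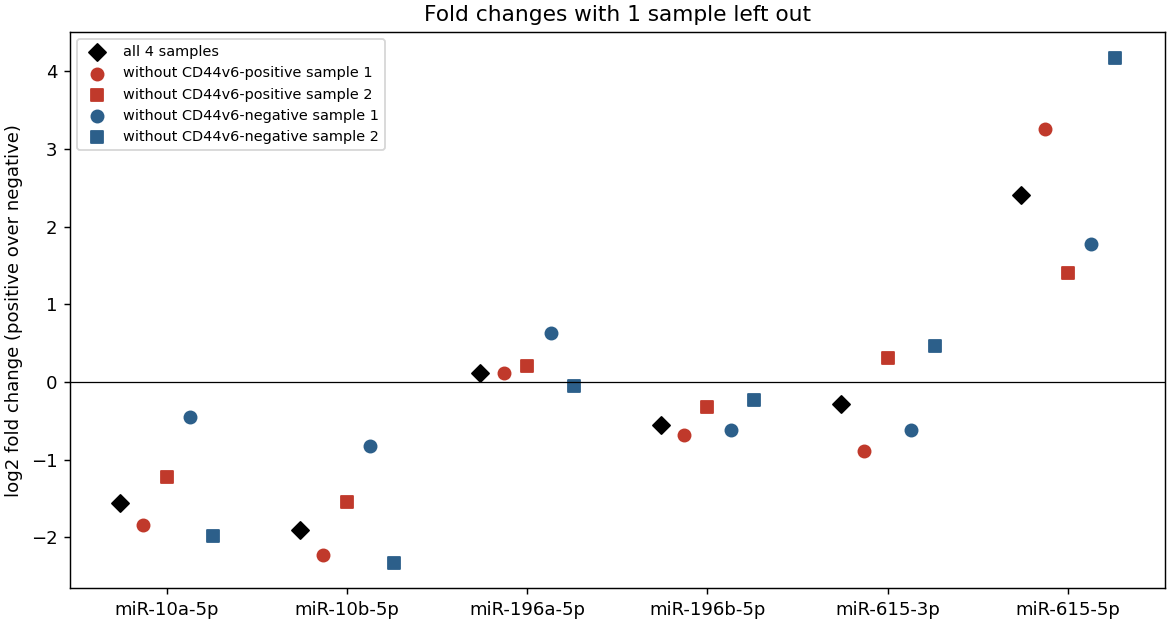
Log2 fold change (CD44v6-positive over CD44v6-negative) of 6 entries with all 4 samples (black diamonds) and with 1 sample left out, red for a CD44v6-positive and blue for a CD44v6-negative sample, circles for sample 1 and squares for sample 2. The miR-10 5p arms are nearest to 0 without CD44v6-negative sample 1, at -0.45 and -0.82, and miR-196a-5p and miR-615-3p cross 0.

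The mature sequences differ in base composition, and a fit that allowed for it gave other values. With offsets for the GC content of the mature sequence, miR-10a-5p (43.5% GC) stood at -0.88 on the log2 scale (adjusted p = 0.495 in edgeR) and miR-615-5p (77.3% GC) at 1.18 (adjusted p = 0.455 in edgeR). miR-615-3p (63.6% GC) was at -0.89 in that fit, miR-196a-5p (40.9% GC) at 1.02 and miR-196b-5p (45.5% GC) at -0.03. The miR-10 3p arms also came nearer to 0, with miR-10a-3p (36.4% GC) at -0.29 and miR-10b-3p (40.9% GC) at -1.35. None of these 7 entries passed. The offsets also moved the median of all miRNAs by 0.31. Relative to that median miR-10a-5p stood at -0.88, against -1.25 without the offsets, and miR-615-5p at 1.18, against 2.72.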

How the data were processed

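Per the file headers, the authors deposited raw read counts per mature miRNA in 4 columns, each joining the 2 sequencing entries that share a combined identity in the labels. Each group thus had 2 samples here, where the series text speaks of 4. The authors also deposited a normalized signal, which equals the raw count divided by 1 size factor per column (0.576, 0.156, 3.09 and 3.58 for CD44v6-positive samples 1 and 2 and CD44v6-negative samples 1 and 2), and it was used only for this check. Per the labels' protocols, an Illumina small RNA kit with gel size selection gave the libraries. The submitters' processing notes name GRCh38, DESeq2, Bowtie 0.12.9, cutadapt 1.10 and CASAVA 1.8.2. Which annotation was used and how reads with several matches were handled is not given in the sources used here.

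Counts were tested with edgeR 4.0.16 in R 4.3.3 (TMM, filterByExpr with a minimum count of 10 and minimum total of 15, estimateDisp, glmQLFit, glmQLFTest), with Benjamini-Hochberg adjustment over all 570 tested miRNAs and a threshold of 0.05. SE is the absolute log2 fold change over the square root of F. Alternatives used other scalings and filters, DESeq2 1.42.0, limma-voom (limma 3.58.1), a replicate block, loess offsets on GC content and each sample left out in turn. The scripts were tested on simulated data. Shares were compared by exact permutation tests. No set test was run. The entries, related miRNAs and marker lists were chosen with earlier results of these data known. Besides the entries, the rule named other miRNAs inside the HOX clusters, fixed sequence relatives, and the 2 nearest miRNAs to each abundant arm.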

Additional observations from a re-analysis of the deposited data

How the results depend on the processing

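The number of miRNAs past the threshold, 0 of 570 in edgeR (30.5% at an unadjusted p under 0.05), was unstable. It was 48 with total count scaling, 77 with no count filter, 52 with DESeq2, 4 with limma-voom, 1 with GC offsets, and 26 to 55 with 1 sample left out. Before adjustment, the share of miRNAs under 0.05 that were higher in CD44v6-positive cells was 58.4% under upper quartile scaling, 56.6% under total counts and 42.5% under TMM. With the replicate number as a block it was 228, and 14 with the block and GC offsets together. Same-numbered samples deviated from their group means with a correlation of 0.375, but the labels give these numbers no shared culture or day, and 2 pairs cannot establish one. Of the 8 tested HOX-cluster entries, 0 passed in the main test. With no filter 1 of 9 passed, beside 77 of all 1510 miRNAs tested. That entry was miR-10b-5p at -2.35, or -0.79 relative to a median of -1.55 for all miRNAs in that fit. With the replicate block 3 of 8 passed (miR-10a-5p at -1.35, miR-10b-5p at -1.71 and miR-615-5p at 2.68), beside 228 of all 570. Those 3 of 8 were no larger a share than that of all miRNAs. With the replicate block and GC offsets together 0 of 7 passed, beside 14 of all 497. There miR-10a-5p was at -0.66 (adjusted p = 0.289 in edgeR) and miR-615-5p at 1.33 (adjusted p = 0.277 in edgeR), while miR-10b-5p was not in that fit. Of 106 recomputed log2 fold changes of the entries, 94 kept their sign and side of the threshold, 6 passed it and 6 changed sign. The changes of sign were miR-196a-5p with no filter (-0.34), with DESeq2 (-0.10) and without CD44v6-negative sample 2 (-0.0461), and miR-615-3p with upper quartile scaling (0.0624) and without CD44v6-positive sample 2 (0.31) or CD44v6-negative sample 2 (0.46). With 1 sample left out, where the lone sample is assumed to vary like the others, log2 fold changes ran from -1.98 to -0.45 for miR-10a-5p, -2.32 to -0.82 for miR-10b-5p, -9.43 to -0.91 for miR-10a-3p, -7.93 to -1.74 for miR-10b-3p, -0.05 to 0.63 for miR-196a-5p, -0.68 to -0.23 for miR-196b-5p, -0.89 to 0.46 for miR-615-3p and 1.41 to 4.18 for miR-615-5p. The lower ends for the miR-10 3p arms come from the fit in which the CD44v6-positive sample kept has 0 reads. For miR-10b-3p the range covers only the fits without a CD44v6-positive sample. Without either CD44v6-negative sample this arm did not pass the filter on low counts. The cause of the other shifts was not tested. GC offsets covered 87.2% of the tested miRNAs and 7 of the 8 tested entries, without miR-10b-5p. Depth limits the rarer arms most, since CD44v6-positive sample 2 holds 154481 reads.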
